A study of Rattus norvegicus with 9 samples.

Results

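Schwann cells wrap the motor axons that run inside a muscle, and their myelin is built from a small set of dedicated proteins. The genes described here are *Pmp22*, *Mbp*, *Mag*, *S100b*, *Prx* and *Cnp*, which were taken as a measure of intramuscular nerve. Whether they read nerve alone in this series was not tested. Their probe sets were taken by gene symbol, and the 6 genes were chosen with earlier results of these data known. Every probe set whose only symbol in the platform's annotation is 1 of these 6 genes was taken, which gave 10 of the 8740 probe sets that are not controls: 3 for *Mag*, 2 each for *Pmp22* and *S100b*, and 1 each for *Mbp*, *Prx* and *Cnp*.

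The posterior cricoarytenoid, the laryngeal muscle that opens the vocal folds, was taken from rats aged 6, 18 and 30 months and measured on 9 Affymetrix Rat Genome U34 arrays. For each age 3 arrays were hybridized, every one with a single RNA sample made from the muscles of 4 animals. The sources used here name no strain, sex or treatment, so age is the only property known to separate the groups. The series took 6 months as its baseline. Values are signal intensities, in the arbitrary linear units of Microarray Suite 5.0. Array medians were 120 to 125 at 6 months, 104 to 116 at 18 months and 105 to 112 at 30 months.

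Myelin is a stack of Schwann cell membrane wound around an axon. In its compact part PMP22, a membrane protein whose gene dosage matters for inherited neuropathies in humans, spans the membrane, and MBP draws the cytoplasmic faces together. MAG sits on the inner membrane that faces the axon, CNP is an enzyme of uncompacted cytoplasmic channels, and periaxin, the product of *Prx*, is a scaffold that links the outer Schwann cell membrane to the basal lamina. S100B is a calcium-binding protein widely used to stain Schwann cells, and adipocytes and cartilage cells also make it. In whole muscle, fewer cells of a type and less RNA per cell cannot be told apart.

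As a check of the tissue, the skeletal muscle genes *Ckm* (muscle creatine kinase) and *Acta1* (skeletal actin) averaged 34163 and 29812 at 6 months, and all 14 muscle-defining genes on the array passed the signal filter. Transcription factors that define Schwann cells read weakly. *Sox10* averaged 19.2, 30.4 and 29.9 over the 3 ages in rising order, and *Egr2* 49.4, 58.4 and 45.1. Both lay under the filter, a mean log2(signal + 32) of 6.60 over all arrays. *Erbb3*, the neuregulin receptor of Schwann cells, averaged 141, 143 and 141 and passed it. Signals of different probe sets are not comparable as amounts of RNA.

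Of the 10 probe sets of the 6 genes, 8 passed the signal filter and were tested, with at least 1 for every gene. In limma's fit over 5244 probe sets 0 of these 8 passed an adjusted p of 0.05 in any comparison. Over all probe sets 0.0763% passed between 18 and 6 months, 0.324% between 30 and 6 months, 0.0191% between 30 and 18 months and 0.267% in the F-test for any difference among ages. An unadjusted p under 0.05 was reached by 2 of the 8 between 18 and 6 months, against 8.62% of all probe sets, by 2 of 8 between 30 and 6 months (12.9%) and by 0 of 8 between 30 and 18 months (3.2%). In both cases of 2 they were *Pmp22* and *Prx* on the lower side, where the share of all probe sets was 5.63% and 8.73%, and 1.74% between 30 and 18 months. At that level the F-test found 1 of 8, *Prx*, against 8.92% of all probe sets. A p that misses the threshold does not show that the ages were alike.

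*Pmp22* and *Prx* were the members whose arrays at 18 months and at 30 months all lay under every array of 6 months. Their promoters are shown because these genes were lowest together, with the motif matches in capitals. Each run is 300 bases of RefSeq's rat assembly GRCr8, 5′ to 3′, with 250 bases before the transcript start and 50 after it. *Pmp22* lies on the plus strand at chr10:48294682-48294981, and *Prx* on the plus strand at chr1:91914171-91914470. The annotated *Prx* gene begins at 91912669, before its window, so that window belongs to a later transcript start. For *Pmp22* the window spans the start of the annotated gene, 48294932.
Pmp22: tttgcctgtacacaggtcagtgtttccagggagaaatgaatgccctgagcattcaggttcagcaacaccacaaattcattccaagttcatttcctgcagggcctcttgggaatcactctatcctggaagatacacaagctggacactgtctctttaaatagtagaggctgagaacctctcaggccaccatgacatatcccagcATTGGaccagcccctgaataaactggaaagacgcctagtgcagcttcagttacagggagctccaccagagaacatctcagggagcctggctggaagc
Prx: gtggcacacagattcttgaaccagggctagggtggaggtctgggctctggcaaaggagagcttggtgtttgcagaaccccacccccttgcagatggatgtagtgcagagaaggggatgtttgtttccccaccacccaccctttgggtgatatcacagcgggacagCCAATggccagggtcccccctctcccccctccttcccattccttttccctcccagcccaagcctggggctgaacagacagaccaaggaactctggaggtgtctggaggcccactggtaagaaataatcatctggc

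The capitals mark a CCAAT box, searched on both strands as CCAAT and its reverse complement ATTGG. Counted from the transcript start, *Prx* had it on the plus strand with its first base at -85, and *Pmp22* on the minus strand at -47. The motif is common, and 37.5% of 33469 rat promoters of this length hold it. The other motifs searched on both strands were the Egr2-type site GCGNGGGCG (4.98% of promoters), the Sox-type site ACAANG (42.1%) and the TATA box TATAAA (14.2%). None of these 3 was in either window. Among the other members, windows of *Mag* and *Cnp* and 1 of the 2 windows of *Mbp* held Sox-type sites, and that of *S100b* held 3 CCAAT boxes. No matches in the members' windows overlapped each other.

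*Prx* had the largest difference between 30 and 6 months among the representative probe sets, those with the highest mean signal of each gene. Its signal was 572.5, 526 and 454.5 on the arrays of 6 months, then 407.5, 389 and 433 at 18 months, then 398, 295 and 375 at 30 months. Every array of 18 months and of 30 months was below the lowest of 6 months, while the arrays of 18 and 30 months overlapped. The mean was 356 ± 53.9 at 30 months, against 518 ± 59.4 at 6 months (SD, n = 3 arrays each). That is a log2 change of -0.51 (SE 0.14, 95% confidence interval -0.81 to -0.20), which did not pass over all probe sets in limma (adjusted p = 0.254). Over 16 alternatives of processing its change ran from -0.59 to -0.39, with adjusted p of 0.192 to 0.615. Between 18 and 6 months the log2 change was -0.31 (SE 0.14, interval -0.62 to -0.00185, limma adjusted p = 0.576), and between 30 and 18 months -0.20 (interval -0.50 to 0.11).

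*Pmp22* was the strongest of the members' probe sets by signal, through S55427_s_at. It read 2524, 2415 and 2167 at 6 months, then 1831, 2071 and 2026.5 at 18 months, then 2055, 1848.5 and 1834 at 30 months. The 3 arrays of 6 months were again the highest of the 9, and the older ages overlapped each other. Its mean was 1976 ± 128 at 18 months and 1912 ± 124 at 30 months, against 2369 ± 183 at 6 months (SD, n = 3 each). The log2 changes from 6 months were -0.26 at 18 months (SE 0.11, limma adjusted p = 0.576) and -0.30 at 30 months (SE 0.11, interval -0.56 to -0.05, limma adjusted p = 0.331). The other *Pmp22* probe set, rc_AA924909_at, averaged 121 ± 8.16, 122 ± 38.5 and 114 ± 48.9 at 6, 18 and 30 months (SD, n = 3 each). Its ages overlapped, its 30-month change of -0.12 had an interval from -0.68 to 0.44, and its change at 18 months turned sign under quantile normalization. Over the 9 arrays the correlation between the *Pmp22* probe sets was -0.14, given as a description of a strong and a weak signal for the same gene.

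*Mbp* read 191, 208 and 181 at 6 months, then 137.5, 148.5 and 227 at 18 months, then 147, 178 and 163 at 30 months. The arrays of 30 months all lay below those of 6 months, at the nearest with 178.3 at 30 months against 180.8 at 6 months, whereas replicate 3 of 18 months was the highest of all 9. The mean at 30 months was 163 ± 15.7, against 193 ± 13.7 at 6 months (SD, n = 3 each; log2 change -0.21, interval -0.58 to 0.16, limma adjusted p = 0.592). At 18 months the log2 change was -0.17, and it ran from -0.36 without replicate 3 of 18 months to -0.06 without replicate 1 of 18 months. After quantile normalization the arrays of 30 and 6 months overlapped, with 189 (replicate 2 of 30 months) above 174 (replicate 3 of 6 months).

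*Mag* had 3 probe sets, and the mean of each was highest at 18 months and lowest at 30 months. M22357_g_at read 372, 312 and 348 at 6 months, then 388, 320.5 and 368 at 18 months, then 334, 301 and 303 at 30 months. The ages overlapped, with 2 of the 3 arrays of 30 months the lowest of the 9, and the log2 change at 30 against 6 months was -0.12 (interval -0.39 to 0.14, limma adjusted p = 0.676). X06554cds_s_at was the most variable probe set of the members by its standard error of 0.43, and read 122, 244 and 179 at 6 months, then 127, 254 and 299.7 at 18 months, then 156, 223 and 45.7 at 30 months. Its log2 change at 30 months was -0.42, and 0.08 without replicate 3 of 30 months, the array at 45.7. M22357_at read 7.5 to 19.9 on all arrays and lay under the filter. Fitted without a filter, it had no unadjusted p under 0.05 in any comparison.

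*Cnp* had a higher mean at 30 months than at 6 months. It read 141.5, 139 and 164 at 6 months, then 164, 144 and 146 at 18 months, then 170.5, 158 and 157 at 30 months. The ages overlapped, and the mean at 30 months was 162 ± 7.69, against 148 ± 13.8 at 6 months (SD, n = 3 each; log2 change 0.10, interval -0.14 to 0.35, limma adjusted p = 0.697). The interval leaves room for levels 0.907 to 1.27 times those of 6 months.

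*S100b*, through S53527mRNA_s_at, read 198, 141 and 76.2 at 6 months, then 94.7, 149.6 and 121 at 18 months, then 183, 171.5 and 142 at 30 months. The spread at 6 months covered the values of all 6 older arrays, and the log2 change at 30 months was 0.28 (interval -0.29 to 0.84, limma adjusted p = 0.657). Without replicate 3 of 6 months it was -0.02. The other probe set, rc_AI146214_at, lay under the filter and averaged 40.2 ± 10.3, 39.6 ± 8.56 and 34.5 ± 7.83 at 6, 18 and 30 months (SD, n = 3 each).

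**Figure D1:**
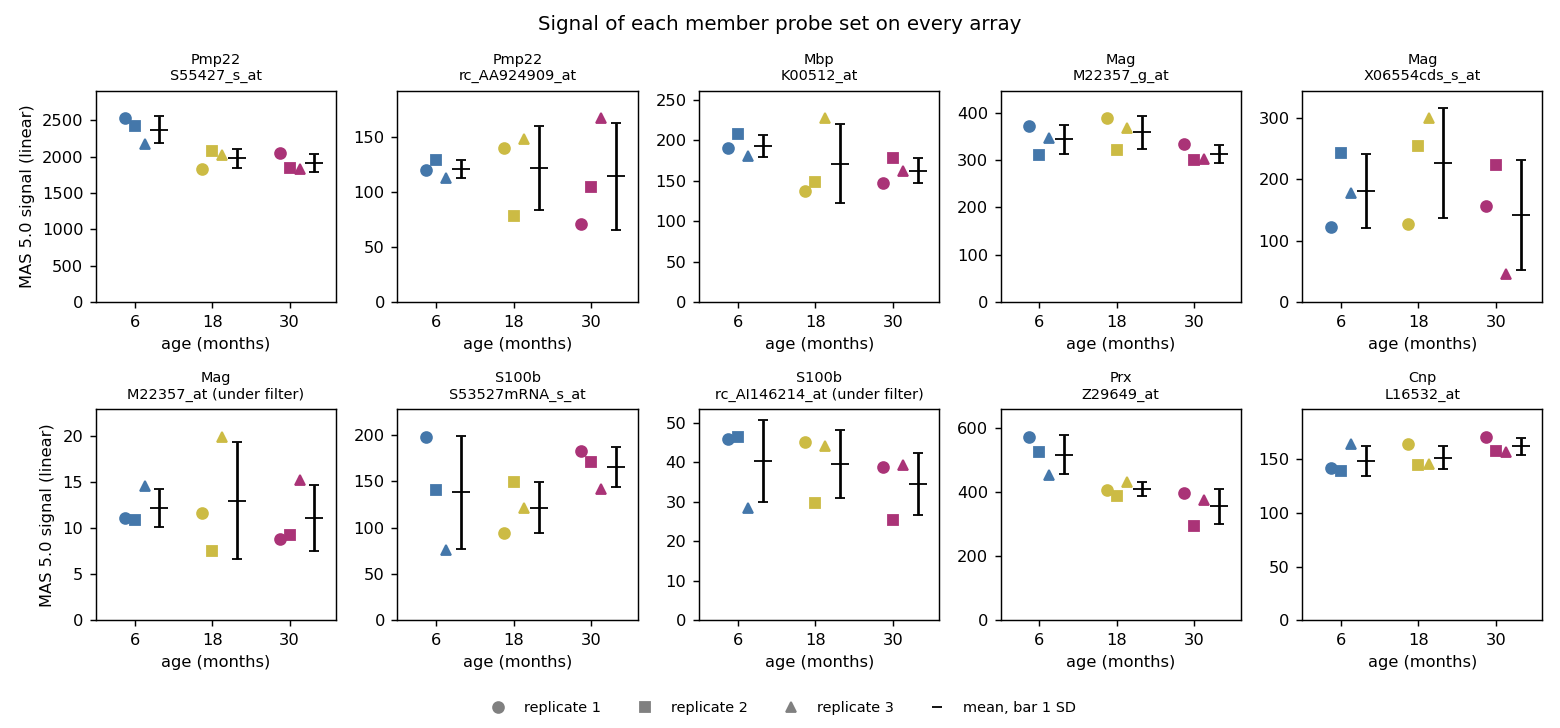
Signal of the 10 probe sets of the myelin and Schwann cell genes on each array (vertical axis, linear Microarray Suite 5.0 units from 0) by age in months (horizontal axis); marker shape is the replicate number, and the black bar is the mean with 1 SD over 3 arrays. In *Pmp22* (S55427_s_at) and *Prx* the 3 arrays of 6 months lie above all 6 older arrays, while *Cnp*, *Mag* and *S100b* overlap between ages.

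The order of levels over ages differed between genes. *Pmp22* (S55427_s_at), *Prx* and *Mbp* had their highest mean at 6 months and their lowest at 30 months, and *Cnp* ran the other way. *Mag* (M22357_g_at) was highest at 18 months and *S100b* lowest there. Neighbouring ages that did not overlap were 6 and 18 months for *Pmp22* and *Prx*. For the other genes, and between 18 and 30 months for every member, neighbouring ages overlapped.

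Counted over the 8 tested probe sets, 5 were lower and 3 higher at 18 months than at 6 months. At 30 months 6 were lower and 2 higher than at 6 months, and likewise 6 and 2 against 18 months. Of all probe sets 57.7%, 58.8% and 54.1% had a log2 change below 0 in these comparisons. No overlap on the lower side was seen in 2 of 8 at 18 months, where the share of all probe sets was 8.35%, and in 3 of 8 at 30 months, where it was 14.8%. It was seen in 0 of 8 between 30 and 18 months (4.18%). On the higher side it was seen in 0 of 8 in each comparison, where the shares were 5.32%, 7.4% and 3.18%. These counts used signals before quantile normalization, after which *Mbp* overlapped between 30 and 6 months. Being lower than 6 months without overlap at both older ages was a property of 2 of the 8 and of 4.52% of all probe sets. Both comparisons use the same arrays of 6 months. Over the 6 genes, each by its representative probe set, the median log2 change was -0.13 at 18 months and -0.17 at 30 months against 6 months, and -0.04 at 30 against 18 months. The median of all probe sets was -0.04, -0.05 and -0.02, and after quantile normalization -0.0035, -0.01 and -0.0098. The members' own median at 18 against 6 months was -0.05 after quantile normalization. At 30 against 6 months the median rests on *Mbp* and *Mag* (M22357_g_at). Over the alternatives, quantile normalization included, their changes ran from -0.27 to -0.10 and from -0.19 to -0.07.

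**Figure D2:**
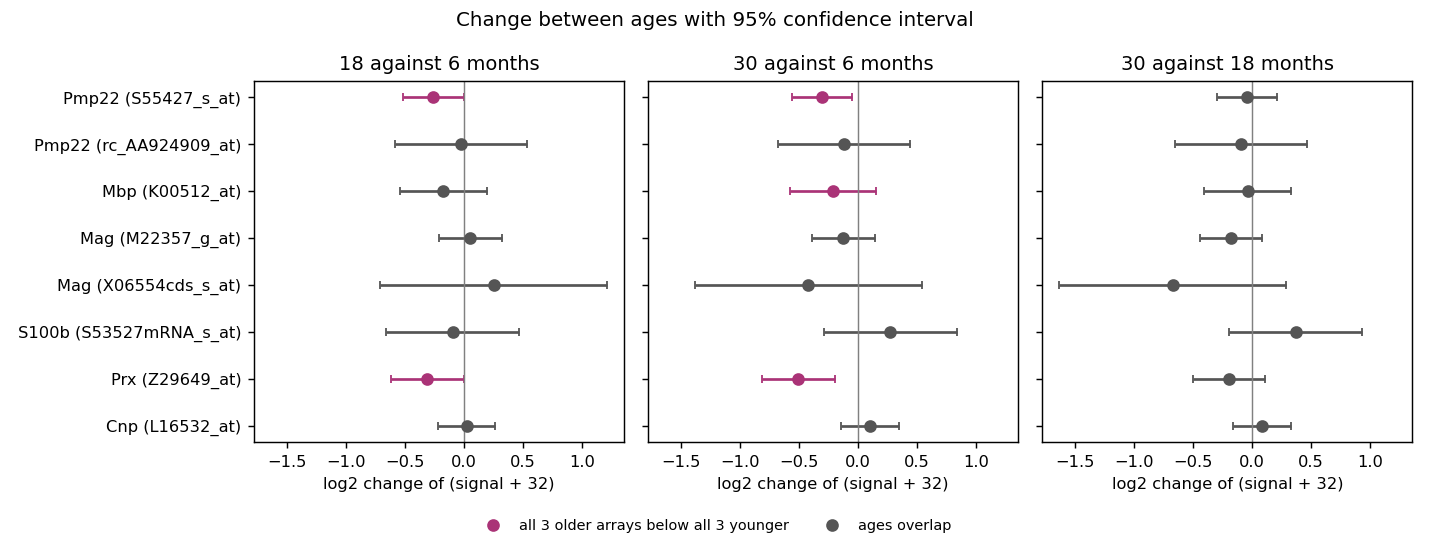
Log2 change of (signal + 32) with its 95% confidence interval from limma (horizontal axis) for the 8 tested probe sets (rows) in each of the 3 comparisons of ages (panels). Purple marks the changes in which all 3 arrays of the older age lie below all 3 of the younger: *Pmp22* (S55427_s_at) and *Prx* at 18 months, with *Mbp* added at 30 months, and 0 between 30 and 18 months.

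Pairs of members were compared over the 9 arrays, 15 pairs in all, on log2 signals. *Pmp22* and *Prx* had a Pearson correlation of 0.87 (exact permutation p = 0.00186, adjusted p = 0.0279 over the 15 pairs, n = 9) and a Spearman correlation of 0.72 (exact permutation p = 0.0369, adjusted p = 0.443, n = 9). It was the 1 pair past the threshold, by Pearson's correlation only. The permutation crossed ages, so its p includes the higher signal of both genes at 6 months. Without the 2 arrays farthest from the median of *Pmp22*, replicates 1 and 2 of 6 months, the correlation was 0.62. Over deviations from age means it was 0.61, and neither value was tested. *Cnp* was negatively correlated with *Mbp* (-0.60) and with *Pmp22* (-0.60), and neither pair passed (exact permutation, both adjusted p = 0.481, n = 9). The marker *S100b* and *Pmp22* correlated at 0.24 over all arrays and at 0.88 within ages. *S100b* and *Cnp* correlated at -0.30 over all arrays and at -0.71 within ages. These were the highest and the lowest correlation within ages among the 15 pairs, and those within ages were not tested. Over all arrays the 15 correlations lay between -0.60 and 0.87, and 9 were above 0.

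**Figure D3:**
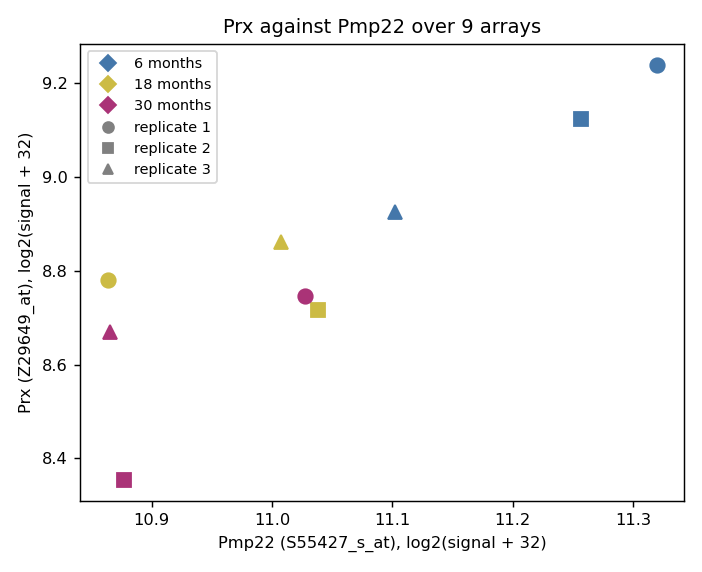
Log2(signal + 32) of *Prx* (vertical axis) against that of *Pmp22* probe set S55427_s_at (horizontal axis) on the 9 arrays, coloured by age and shaped by replicate number. The 3 arrays of 6 months lie at the upper right, above the 6 older arrays on each axis, and the older ages mix.

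Genes whose pattern over the 9 arrays was most like each member were taken from all tested genes by Pearson correlation, as a description without a test. For *Pmp22* they were *Serinc5* (0.96), *Eln* (elastin, 0.95) and *Plod2*, a lysyl hydroxylase of collagen (0.95). *Eln* was also among the 3 nearest to *Prx* (0.94), with *Rab28*, a small GTPase gene (0.97), and *F2rl1*, a protease-activated receptor gene (0.95). *Eln* averaged 400.1 at 30 months and 417 at 18 months, against 590.4 at 6 months. *Lipe*, the hormone-sensitive lipase gene of adipocytes and muscle, was among those nearest to *S100b* (0.88), with *Cox8a* (0.89) and *Mlst8* (0.88). *Mbp* was nearest to *Apc* (0.88), *Crlf2* (0.88) and *Ccr1* (0.87). *Mag* was nearest to LOC102554372 (0.97), *Gskip* (0.96) and *Creg1* (0.95), and *Cnp* to *Hook1* (0.85), *Fam219b* (0.84) and *Rack1* (0.81).

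Other genes of peripheral myelin showed no call either. Of 13 listed, 4 were on the array under 1 symbol and were tested, and 0 passed in any comparison in limma, with 0 at an unadjusted p under 0.05. At 30 months 2 were lower and 2 higher than at 6 months, with a median of -0.07, against -0.05 over all probe sets. Beside the counts of every list, 58.8% of all probe sets were lower at 30 months than at 6 months. An unadjusted p under 0.05 was reached by 12.9% of all probe sets in that comparison. *Cd9*, a tetraspanin of many cell types including Schwann cells, averaged 672 ± 47.8 at 30 months, against 769 ± 64.3 at 6 months without overlap (SD, n = 3 each; log2 change -0.19). *Gjb1*, the connexin of Schwann cell incisures, averaged 234 ± 38.3 at 30 months, against 223 ± 26.9 at 6 months (SD, n = 3 each).

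Among genes of the Schwann cell lineage 9 of 18 were tested and 0 passed, with 1 at an unadjusted p under 0.05 at 30 months; 4 were lower and 5 higher at 30 months than at 6 months, with a median of 0.01. *Ngfr* is the low-affinity neurotrophin receptor that Schwann cells raise after losing axon contact. By U25650_f_at, the stronger of its 2 probe sets, it averaged 1040.3 ± 60.4 at 30 months, against 983 ± 189 at 6 months (SD, n = 3 each, log2 change 0.09). *Vim*, the vimentin gene of Schwann cells and fibroblasts, had a log2 change of 0.01. In the list of node and axon contact genes 6 of 13 were tested, 0 passed with 2 at that unadjusted level, and 4 were lower and 2 higher at 30 months (median -0.10). *Ank3*, the ankyrin-G gene, had a log2 change of -0.19 and *Cntn2*, an adhesion gene, of -0.07. The 2 at the unadjusted level were *Cntnap1* on the higher side (0.54) and *Scn8a* on the lower (-0.66).

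Periaxin anchors Schwann cells to laminin through dystroglycan, so the partners and the basal lamina were looked at beside *Prx*. Of 16 listed genes 8 were tested and 0 passed (2 unadjusted), with 6 lower and 2 higher at 30 months than at 6 months and a median of -0.11. The 2 were laminin genes on the lower side, *Lamc1* (log2 change -0.37) and *Lama2* (-0.38). *Dag1*, the dystroglycan gene, was not among those on the array. The integrin β1 gene *Itgb1* averaged 2253 ± 218 at 30 months, against 2500.1 ± 125 at 6 months (SD, n = 3 each, log2 change -0.15), and the linker gene *Plec* had a log2 change of -0.04. Both genes are also expressed by muscle fibres. In the list of lipid and cholesterol synthesis, which supplies myelin membrane but also serves adipocytes, 13 of 19 were tested, 0 passed (4 unadjusted), and 8 were lower and 5 higher at 30 months (median -0.19). The desaturase gene *Scd* averaged 820.3 ± 180.5 at 30 months, against 1417 ± 806 at 6 months (SD, n = 3 each), and *Apoe* had a log2 change of 0.22.

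Markers of other cells moved with *Pmp22* and *Prx*, and their part in the differences was not tested. In the list of fibroblast and perineurium genes 1 of 11 tested genes passed at 18 months (0.0763% of all probe sets) and 4 at 30 months (0.324%), all on the lower side, and 9 of 11 were lower at 30 months (median -0.44). *Col1a2*, a type I collagen chain, averaged 457 ± 34.8 at 30 months, against 1215.5 ± 141 at 6 months (SD, n = 3 each). The others past the threshold were *Col1a1* (-1.25), *Col5a2* (-1.05) and *Col3a1* (-1.42), and their lower values were known when the list was made. These calls ended in some fits: 0 probe sets passed at 30 months without replicate 2 of 6 months or without replicate 2 or 3 of 30 months, and 0 at 18 months without replicate 2 of 6 months, without replicate 3 of 18 months or with the 2 ages alone. *Pmp22* is itself expressed by fibroblasts. The summed signal of the 12 genes of that list on the array was 29116 to 33228 at 30 months and 26413 to 31283 at 18 months, against 30959 to 39602 at 6 months.

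Skeletal muscle genes lay on the other side. Of 14 tested, 13 were higher at 30 months than at 6 months, with a median log2 change of 0.26, and 0 passed (6 unadjusted). *Ckm* averaged 45860.3 at 30 months, against 34163 at 6 months, without overlap. Their summed signal was 277500 to 302430 at 30 months and 267361 to 321258 at 18 months, against 231251 to 268784 at 6 months. The 2% trimmed mean signal was 492 to 495 on the 9 arrays, so values are relative to a common level per array, and a lower share of nerve or connective tissue RNA and a higher share of fibre RNA cannot be told apart.

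Other cells that make S100B were read through their own genes, and their part in *S100b* was not tested. Of the cartilage list 2 of 13 genes were tested, and the defining genes *Col2a1* (21.8, 15.2 and 16.0 at 6, 18 and 30 months) and *Acan* (15.1, 8.83 and 7.67) lay under the filter. The tested ones, *Col10a1* and *Chad*, had log2 changes at 30 months of -0.56 and -0.28 and did not pass. The list's summed signal was 316 to 364 at 30 months, against 463 to 524 at 6 months, without overlap. The adipocyte list had 8 of 14 genes tested and 0 past the threshold (1 unadjusted), with a median of -0.05 at 30 months and log2 changes of 0.04 for *Lpl* and -0.02 for *Slc2a4*. Among its defining genes *Plin1* (34.3, 46.8 and 40.2 at 6, 18 and 30 months) lay under the filter. *Lep*, *Fabp4* and *Cfd* passed it, each with a log2 change of -0.05 at 30 months. The adipocyte list's summed signal was 13051 to 14237 at 30 months, against 12884.5 to 16372 at 6 months. *Lpl* and *Slc2a4* averaged 4020 and 4194 at 6 months of a mean sum of 14283, so the sum leans on these genes. *Lipe*, a gene of adipocytes and muscle, is also in the list. Oligodendrocyte genes, which would mark central myelin, were *Mog* and *Mobp*. *Mog* averaged 47.8 ± 3.33 at 30 months, against 114 ± 84.7 at 6 months (SD, n = 3 each), where its highest array read 211 and the lowest 53.4. *Mobp* averaged 64.8 at 30 months, against 23.5 at 6 months, and lay under the filter.

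**Figure D4:**
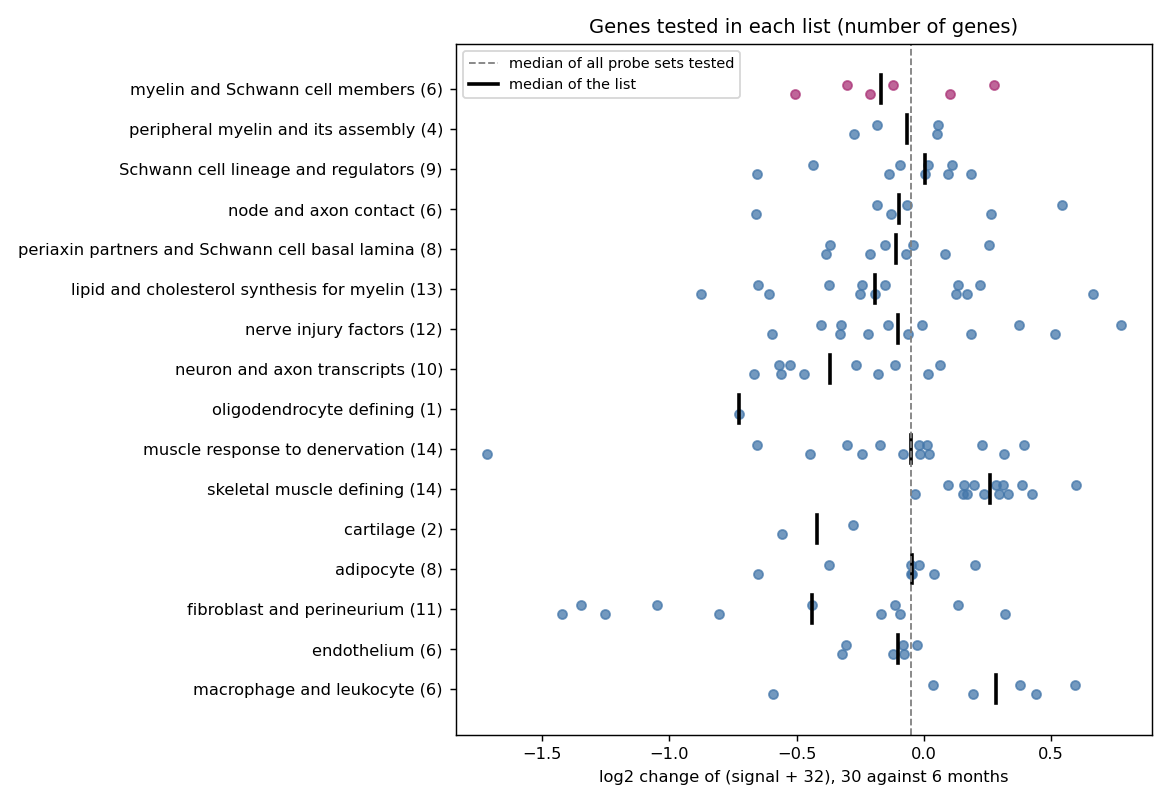
Log2 change of (signal + 32) between 30 and 6 months (horizontal axis) of the 6 myelin and Schwann cell genes (purple) and of the tested genes of each list (blue, number of genes in brackets), 1 point a gene by its representative probe set. Black bars are list medians and the dashed line is the median of all probe sets tested, -0.05; the members' median is -0.17, and the skeletal muscle list lies mostly above 0.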

How the data were processed

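The authors' deposited table holds signal intensity on a linear scale, computed with Microarray Suite 5.0 per the series' design text and the submitters' processing notes (MAS5). Per that text, 1 biotinylated cRNA sample from 4 pooled animals was hybridized to each of 9 chips. Detection and difference calls were not used here. The genome build is not given in the sources used here.

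Of 8799 probe sets, 59 controls were left out. Signals were analysed as log2(signal + 32), and the upper 60% by mean were tested (5244). R 4.3.3 and limma 3.58.1 estimated a mean for each age from the 9 arrays together (6 residual and 3.69 prior degrees of freedom). Tests were two-sided, with Benjamini-Hochberg adjustment across the 5244 and a threshold of 0.05. Their p-values reflect variation among pooled samples only. An F-test asked for any difference among ages. Correlations between members used exact permutation over all pairings of 9 arrays without regard to age, two-sided. Precision is limited by how many arrays there are. The model was tested on simulated data.

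Gene symbols came from the platform's annotation, which gives 1 symbol to 7006 probe sets, more than 1 to 308 and no symbol to 1426; promoter sequences came from RefSeq GRCr8 by symbol, for all 6 genes. The 6 genes and the 15 lists were chosen with earlier results of these data known. Named genes were every member, up to 4 genes per list past the threshold or else the 2 of the highest signal, and the 3 genes nearest to each member. Defining markers, the other nerve, muscle and leukocyte genes of the closing section, and *Erbb3*, *Cntnap1*, *Scn8a*, *Lamc1* and *Lama2* were named after their values were seen. Alternatives were other pseudocounts, other filters, quantile normalization, the replicate number as a block, each array left out, the 2 ages alone and a fold rule.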

Additional observations from a re-analysis of the deposited data

How the results depend on the processing

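Over 369 values of log2 change of the 8 tested probe sets under the alternatives, 0 passed the threshold (lowest adjusted p = 0.192, limma) and 18 turned sign, all of them changes that had not passed; *Prx*, and *Pmp22* by S55427_s_at, turned in none. By quantile normalization *Pmp22* (rc_AA924909_at) became 0.0915 at 18 and 0.0094 at 30 months against 6. Over the fits that left out 1 array, the changes with a turned sign ran as follows. For *Pmp22* (rc_AA924909_at) they ran from -0.15 to 0.21 at 18 and from -0.36 to 0.11 at 30 months against 6, and from -0.34 to 0.13 at 30 against 18 months. For *Mag* they ran from -0.0061 to 0.13 at 18 months (M22357_g_at) and from -0.78 to 0.0780 at 30 months (X06554cds_s_at). For *S100b* they ran from -0.39 to 0.16 at 18 and from -0.0184 to 0.53 at 30 months, for *Cnp* from -0.0253 to 0.0858 at 18 months, and for *Mbp* from -0.16 to 0.15 at 30 against 18 months.

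The count of members past the threshold was 0 under every alternative, the fold rule (ratio over 1.7 without overlap) included. The count over all probe sets was 4 at 18 and 17 at 30 months against 6, 1 at 30 against 18 months and 14 for any age. Without 1 array it ran from 0 to 5, from 0 to 20, from 0 to 2 and from 0 to 11. The counts of 0 against 6 months came without replicate 2 of 6 months or replicate 3 of 18 months (18 months), and without replicate 2 of 6 months or replicates 2 or 3 of 30 months (30 months). By the fold rule the count was 75 at 18 and 117 at 30 months against 6, and 33 at 30 against 18 months. With the replicate number as a block it was 11 at 30 against 6 months, 0 at 30 against 18 months and 4 for any age, and no member's call moved under this block. Between 30 and 18 months it was 0 with a pseudocount of 64, with the upper 40% of probe sets and with the 2 ages alone, and 4 without a filter. With the 2 ages alone it was also 0 at 18 against 6 months. For any age it was 6 with a pseudocount of 8, 6 without a filter and 9 by quantile normalization.

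The median over member genes became -0.26 at 18 and -0.30 at 30 months against 6, and -0.18 at 30 against 18 months, with the upper 40% of probe sets, which keeps 3 of the 6 genes. Without 1 array the medians ran from -0.27 to -0.0403, from -0.18 to -0.14 and from -0.11 to 0.02. These ranges leave out quantile normalization. The 1 pair past the threshold stayed at 1 pair under both pseudocounts and quantile normalization. With the replicate number as a block, *Prx* at 30 against 6 months had an adjusted p of 0.223 in limma. In both other ages, 5 of 9 arrays correlated best with their own number. Same-number arrays correlated in their deviations from age means at -0.02 to 0.26 over 9 pairs, 4 of them over 0.1. Arrays of different numbers correlated at -0.21 to 0.15 over 18 pairs, 2 of them over 0.1. The labels do not say what a number stands for, so the main fit had no block. The standard error was 0.25 for *Pmp22* rc_AA924909_at and 0.11 for S55427_s_at.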

Other observations

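Transcripts of neurons and axons, whose cell bodies lie outside the muscle, were read beside the myelin genes. Of 15 such genes on the array 10 were tested and 0 passed in limma, with 5 at an unadjusted p under 0.05 at 30 months, against 12.9% of all probe sets. All 5 were on the lower side, where the share of all probe sets was 8.73%: *Prph*, *Ret*, *Syp*, *Snap25* and *Nefl*. At 30 months 8 of the 10 were lower than at 6 months, with a median log2 change of -0.37, against -0.05 over all probe sets and 58.8% of them below 0. *Prph*, the peripherin gene of peripheral neurons, averaged 87.2 ± 16.4 at 30 months, against 144 ± 24.3 at 6 months (SD, n = 3 each, limma adjusted p = 0.260). *Syp*, the synaptophysin gene of synaptic vesicles, averaged 68.7 ± 31.4 at 30 months, against 125 ± 33.3 at 6 months. *Uchl1* and *Thy1*, the genes of the list with the highest signal, had log2 changes of 0.06 and -0.11. Most of these signals were weak, and the list was read with its values known. Array medians were lower at 30 months than at 6 months, and the part of this in the list's changes was not tested. The list was not read after quantile normalization.

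Genes that muscle fibres raise after losing their nerve did not pass either: 14 of 20 were tested, 0 passed in limma with 4 at an unadjusted p under 0.05, and 9 were lower and 5 higher at 30 months (median -0.05). *Trim63*, a ubiquitin ligase gene of atrophy, had a log2 change of -0.17 and *Myh3*, the embryonic myosin gene, of -0.02. Of the 4, *Ncam1* (-0.66), *Myh8* (-1.72) and *Runx1* (-0.24) were on the lower side. *Chrnd*, the acetylcholine receptor δ subunit gene, was on the higher side, with 587 ± 25.0 at 18 months and 591 ± 78.3 at 30 months, against 469 ± 66.6 at 6 months, without overlap at either age (SD, n = 3 each, limma adjusted p = 0.381 at 30 months). The other subunit genes had log2 changes at 30 months of -0.01 (*Chrna1*), 0.23 (*Chrnb1*), -0.08 (*Chrne*) and -0.30 (*Chrng*), and *Myog*, the myogenin gene, of 0.39.

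Among factors of nerve injury 12 of 17 were tested and 0 passed in limma with 3 at an unadjusted p under 0.05 at 30 months, where 8 were lower and 4 higher (median -0.10). *Igf2* averaged 3933 ± 540.5 at 30 months, against 3018 ± 277 at 6 months, without overlap (SD, n = 3 each, limma adjusted p = 0.327), and *Ntf3*, the neurotrophin-3 gene, had a log2 change of -0.14. Besides *Igf2*, those at the unadjusted level were *Tgfb1* on the higher side (0.77) and *Cntf* on the lower (-0.33). In the macrophage and leukocyte list 6 of 14 were tested, 0 passed in limma with 2 at an unadjusted p under 0.05, and 5 of 6 were higher at 30 months (median 0.29), among them *Cd74* (0.60, 1 of the 2) and *Lyz2* (0.38). The other of the 2, *Cd14*, was on the lower side, with 184 ± 29.7 at 30 months, against 292 ± 30.5 at 6 months, without overlap (SD, n = 3 each, log2 change -0.59, limma adjusted p = 0.299). In the endothelium list 6 of 12 were tested and 0 passed in limma, 0 of them at an unadjusted p under 0.05 at 30 months. All 6 were lower (median -0.10), among them *Cav1* (-0.12) and *Pecam1* (-0.08). Of all probe sets 58.8% were lower at 30 months.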
